A study of Mus musculus with 32 samples.

Results

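The genes described here are 9 that encode secreted or membrane-bound proteases of the extracellular matrix and their natural inhibitors, chosen by name: the matrix metalloproteinases Mmp2, Mmp3, Mmp13 and Mmp14, the ADAMTS proteases Adamts1 and Adamts5, and the tissue inhibitors Timp1, Timp2 and Timp3. They are 9 of the 21829 mouse genes in the deposited table, and all 9 passed the filter on low counts that left 9344 genes for testing. The RNA, polyadenylated, came from the mesenchymal stromal line EL08-1D2 of the mouse, with 16 libraries from cells grown without azacitidine and 16 libraries from cells grown with it. Azacitidine is a cytidine analogue that is built into nucleic acids and traps DNA methyltransferases. The labels give neither dose nor length of treatment. A single line was studied, and whether the 16 libraries of a group came from separate cultures is not given either, so p-values measure a spread between libraries that may be technical. All levels are counts of unique molecular identifiers (UMIs, each marking 1 cDNA molecule) after scaling of the libraries to a common size, written CPM, and n = 16 per group unless another n is given. A gene is called when its Benjamini-Hochberg adjusted p over all 9344 genes is under 0.05 in edgeR's quasi-likelihood test.

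Matrix metalloproteinases are zinc enzymes made as inactive precursors. A cysteine of the propeptide blocks the zinc until the propeptide is cut away. MMP14 sits in the plasma membrane and, with TIMP2 as the bridge, captures and activates the MMP2 precursor at the cell surface; MMP2 degrades denatured collagen and basement membrane collagen, MMP3 cleaves proteoglycans, fibronectin and other metalloproteinase precursors, and MMP13 cuts fibrillar collagen. ADAMTS1 and ADAMTS5 cut the large proteoglycans versican and aggrecan. The 3 TIMPs block the active site of metalloproteinases, though not every TIMP blocks every enzyme named here. TIMP3 binds to the matrix and is the one best known for blocking ADAMTS proteases. In bone marrow and liver, stromal cells use these enzymes to remodel the matrix on which blood cells lodge.

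Azacitidine acts on DNA methylation, which in mammals falls on the dinucleotide CG, so the start regions of the genes are shown first. RefSeq promoters (GRCm38.p6, 250 bases before to 50 after the start) matched 7 of the 9 genes; Mmp2 and Adamts5 had no entry. The 4 below are those of the genes whose levels moved most clearly or whose change differed most between libraries. Capitals mark CG, the AP-1 motif TGANTCA and the TATA motif TATAAA, searched on both strands with overlaps allowed; all 4 read 5′ to 3′ on the gene's own strand.
Mmp3 (chr9:7445572-7445871, plus strand): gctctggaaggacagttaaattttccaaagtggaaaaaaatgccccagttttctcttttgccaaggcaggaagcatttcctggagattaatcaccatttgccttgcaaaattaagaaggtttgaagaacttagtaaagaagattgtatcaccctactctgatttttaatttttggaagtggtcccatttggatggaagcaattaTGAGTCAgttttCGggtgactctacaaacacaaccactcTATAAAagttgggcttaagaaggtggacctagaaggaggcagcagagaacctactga
Mmp13 (chr9:7272264-7272563, plus strand): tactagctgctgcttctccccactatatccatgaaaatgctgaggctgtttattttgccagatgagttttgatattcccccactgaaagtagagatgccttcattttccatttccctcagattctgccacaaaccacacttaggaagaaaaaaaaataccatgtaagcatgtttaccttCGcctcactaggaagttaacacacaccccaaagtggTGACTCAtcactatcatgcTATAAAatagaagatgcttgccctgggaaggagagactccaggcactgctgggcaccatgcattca
Adamts1 (chr16:85803064-85803363, minus strand): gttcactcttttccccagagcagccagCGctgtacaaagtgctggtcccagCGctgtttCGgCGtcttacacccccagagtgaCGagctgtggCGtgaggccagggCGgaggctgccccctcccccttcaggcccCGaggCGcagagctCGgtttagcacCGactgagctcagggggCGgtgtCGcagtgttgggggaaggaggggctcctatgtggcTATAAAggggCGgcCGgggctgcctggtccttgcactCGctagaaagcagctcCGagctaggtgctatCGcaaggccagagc
Timp3 (chr10:86300162-86300461, plus strand): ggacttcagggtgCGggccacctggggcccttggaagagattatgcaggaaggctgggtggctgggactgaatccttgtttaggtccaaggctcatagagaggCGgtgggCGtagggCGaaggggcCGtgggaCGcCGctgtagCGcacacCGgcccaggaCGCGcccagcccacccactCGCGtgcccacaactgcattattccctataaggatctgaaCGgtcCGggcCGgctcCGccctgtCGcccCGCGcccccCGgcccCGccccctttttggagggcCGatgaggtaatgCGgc

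The number of CG in the 7 promoters ran from 1 to 25. Those of Mmp3 and Mmp13 held 1 CG each, and only 5.43% of 32851 RefSeq promoters of the same length held fewer. Both carried 1 AP-1 motif, starting 46 and 35 bases before the start site, and 1 TATA motif, starting 7 and 16 bases before it. The AP-1 motif stood in 7.81% and the TATA motif in 13.6% of all promoters. Adamts1 had 18 CG and a TATA motif that begins 32 bases before the start but no AP-1 motif. Timp3 had 24 CG, Timp2 25, Mmp14 10 and Timp1 8, against a median of 7 over all promoters, and none of these 4 held either motif. A match is a run of letters and not a measured binding site, and DNA methylation was not measured in these libraries.

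A library held between 818619 and 3210801 UMIs of mouse genes without azacitidine and between 1226861 and 5039721 with it. The group with azacitidine held more UMIs in all, so UMI totals of a gene, which are not scaled, lean toward that group. The libraries fell into runs of 4 replicate numbers (1 to 4, 5 to 8, 9 to 12 and 13 to 16) that resembled each other, and the labels do not say why. Libraries of the 2 groups from the same run had a mean correlation of 0.19 across genes after removal of the group means, and those from other runs -0.06. Of the untreated libraries numbers 1 and 2, and of the treated ones numbers 1, 2 and 4, 5 in all, stood apart on the leading principal component of log2 CPM, at -44.84 to -23.45, with the others between -12.82 and 22.99. These 5 held from 2455232 to 5039721 UMIs. The others held at most 2489108, except number 7 with azacitidine, which held 4218313. The part of depth in this separation was not tested. Stromal identity was clear from Col1a1, Col1a2, Pdgfra, Pdgfrb, Vim and Cxcl12, each with over 1000 UMIs in both groups, while Thy1 had 0 UMIs without and 26 with azacitidine. Some markers of other cells were higher with azacitidine. Of the 8 macrophage markers 6 were in the table and 1 was tested, Cd68, which rose (log2 fold change 0.99, SE 0.16, edgeR, adjusted p = 3.0e-05); under the filter Fcer1g had 4 UMIs without and 65 with azacitidine (called with no filter, edgeR, adjusted p = 2.5e-05), Csf1r 26 and 45, Lyz2 14 and 12, the pan-leukocyte gene Ptprc 1 and 4, and Adgre1 0 and 1, and the list's summed level ran from 4.2 to 14.1 CPM without and from 12.7 to 29.4 with azacitidine. Of the 7 endothelial markers 4 were in the table and none was tested, with summed levels of at most 1.1 and 3.0 CPM; Emcn had 1 and 18 UMIs and was called with no filter (edgeR, adjusted p = 0.010). Of the 7 epithelial markers 6 were in the table and the 3 tested, all keratins, rose, from a summed 2.9 to 9.9 CPM to 71.9 to 148.4, while Epcam had 0 and 1 UMIs. The part of these genes in the results below was not tested.

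Adamts1 gave the steadiest call among the 9 genes, a decrease whose call was lost only with spike-in scaling among the 14 other settings tried. With azacitidine 3 of the 9 genes were lower (Adamts1, Adamts5 and Timp3), none was called as higher, and 6 were not called. Of the 6, Mmp3, Mmp13 and Timp2 had an unadjusted p under 0.05 in edgeR, all 3 toward higher levels. Over all tested genes 1072 of the 8816 that were not called had such a p. DESeq2 called 1 of the 9 genes as higher (Mmp3) and limma-voom 0. In such bulk RNA, fewer cells that express a gene and less RNA per cell cannot be told apart. Over all tested genes 2.00% were called as lower, 3.65% as higher and 5.65% in either direction. The 9 genes had a median log2 fold change of 0.12 and all tested genes one of 0.00. None of the 9 had groups of 16 that did not overlap, which 0.278% of all genes had as higher and 0.0107% as lower. Scaling by the added spike-in RNAs moved the median of all genes up by 0.31 and left none of the 3 decreases called. Over all genes it gave 354 increases and 1 decrease (341 and 187 otherwise). Spike-in counts varied widely between libraries of 1 group and run. Numbers 7 and 8 with azacitidine had 1556 and 3525 spike-in UMIs beside 4218313 and 1695507 UMIs of mouse genes. A call lost there thus cannot tell a smaller change from a noisier scale. The 3 decreases are given relative to other genes. Over all genes, the share called in either direction was 3.80% with spike-in scaling, 3.26% with sums by run and a run term (4 libraries of a group added up in each run), 3.94% with no filter, 6.27% without numbers 1 to 4, 4.05% without numbers 5 to 8, 3.46% without numbers 13 to 16, 10.6% with a run term on single libraries, 2.37% after every library was thinned to the same total, 6.08% without the 5 libraries that stood apart, 6.05% with DESeq2 and 5.93% with limma-voom.

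**Figure D1:**
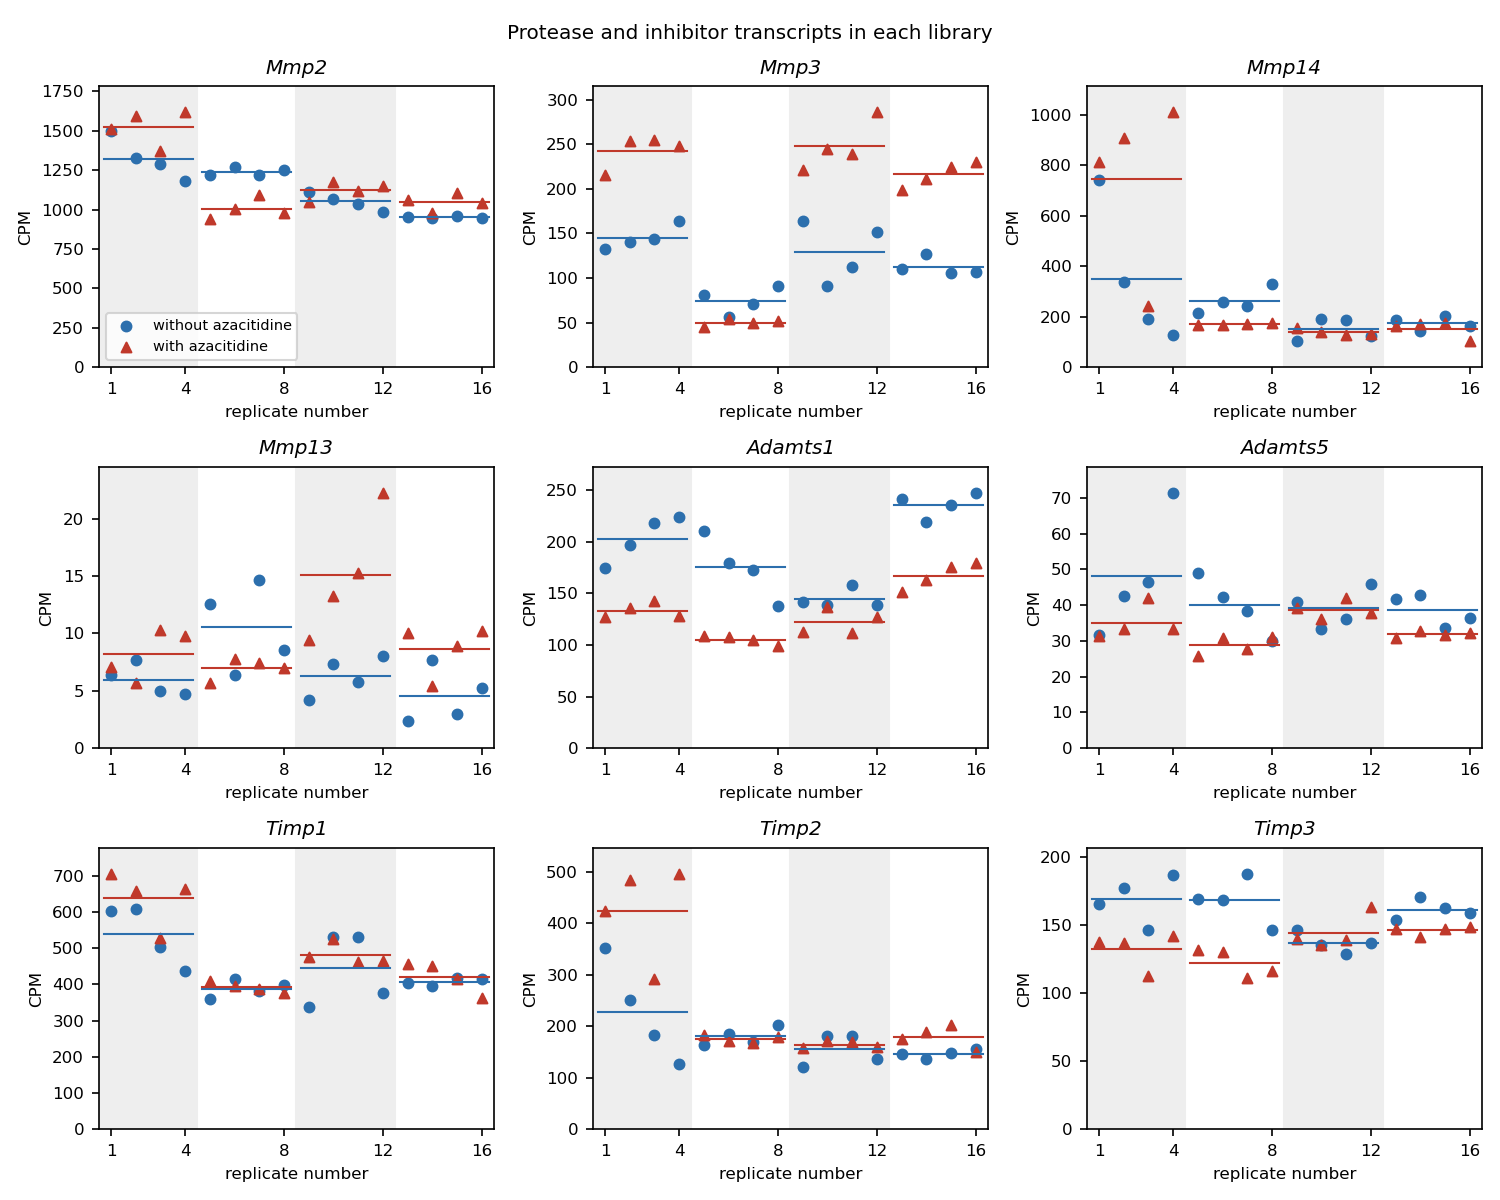
CPM of the 9 genes (linear axes from 0) in each library by replicate number, without (blue circles) and with azacitidine (red triangles). Short lines are means of 4 libraries and shading separates the runs of 4 numbers. Adamts1 lies lower with azacitidine in every run without overlap, Mmp3 lies higher in 3 runs and lower in numbers 5 to 8, and Mmp14 and Timp2 peak in numbers 1 to 4.

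Adamts1 (ENSMUSG00000022893, chromosome 16, 85793827 to 85803113, minus strand, mm10), the protease that clears versican, ran from 138.3 to 247.9 CPM without azacitidine (median 188.3) and from 98.9 to 180.0 CPM with it (median 127.6). All 16 libraries with the drug lay below the median of those without it, and 11 lay below the lowest of them, although the groups overlapped. The level fell from a mean of 189.9 ± 39.3 to 131.9 ± 25.1 CPM (SD), a log2 fold change of -0.53 (SE 0.10, edgeR, adjusted p = 0.00025). Within each of the 4 runs the groups did not overlap at all, with means of 203.3 and 133.5 CPM in numbers 1 to 4, 175.4 and 105.1 in 5 to 8, 144.7 and 121.9 in 9 to 12, and 236.2 and 167.4 in 13 to 16. Only 0.118% of all tested genes were lower without overlap in every run. Tested within a run, Adamts1 was called in numbers 1 to 4, 5 to 8 and 13 to 16 (edgeR, adjusted p = 0.0053, 4.3e-06 and 0.00026). In these runs 2.51%, 6.60% and 3.92% of genes were called. It was not called in numbers 9 to 12 (edgeR, adjusted p = 0.33). There the lowest library without azacitidine had 139.1 CPM and the highest with it 136.6 CPM. The size of the change ranged from -0.75 to -0.24 (log2), and the test of a difference between runs was not passed (edgeR interaction, adjusted p = 0.14). Each of the 32 fits that left out 1 library called it, as did the sums of the libraries of each run with a run term (edgeR, adjusted p = 0.0016). With spike-in scaling its value was -0.17 (edgeR, adjusted p = 0.48).

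Adamts5, the main aggrecan-cutting enzyme of cartilage, lies 53.1 kb from Adamts1 on the same strand of chromosome 16 (85856173 to 85901828). Its level was from 29.9 to 71.5 CPM without (median 41.4) and from 25.8 to 42.0 CPM with azacitidine (median 32.4), and 7 libraries without the drug exceeded every library with it. The mean fell from 41.4 ± 9.8 to 33.6 ± 4.7 CPM (log2 fold change -0.29, SE 0.09, edgeR, adjusted p = 0.043). This call rested close to the threshold. It was lost when any 1 of 20 libraries was left out (numbers 2, 3, 4, 5, 6, 9, 12, 13 and 14 without and 1, 2, 4, 5, 6, 7, 8, 13, 14, 15 and 16 with azacitidine), with adjusted p up to 0.078. The highest value, 71.5 CPM, was that of number 4 without azacitidine, the library with the fewest UMIs. In the runs the log2 fold change was -0.40, -0.50, 0.01 and -0.28, called within numbers 5 to 8 alone (edgeR, adjusted p = 0.036). Within that run 6.60% of all genes were called. With sums of runs and a run term Adamts5 was not called (edgeR, adjusted p = 0.16). The call was also lost without numbers 1 to 4 (edgeR, adjusted p = 0.072), 5 to 8 (0.26) or 13 to 16 (0.18), without the 5 libraries that stood apart (0.056), with no filter (0.057) and after thinning (0.26).

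Timp3, the matrix-bound inhibitor (ENSMUSG00000020044, chromosome 10, 86300372 to 86349506, plus strand), ranged from 128.8 to 187.6 CPM without azacitidine (median 160.4) and from 110.8 to 163.3 CPM with it (median 137.9). Of the 16 libraries with the drug 15 lay below the median of the others, and the ranges overlapped. Its mean of 158.6 ± 17.9 CPM fell to 136.0 ± 13.9 CPM (log2 fold change -0.22, SE 0.06, edgeR, adjusted p = 0.011). In 3 runs, numbers 1 to 4, 5 to 8 and 13 to 16, the values were lower with azacitidine without overlap (as in 4.93%, 5.69% and 4.83% of all genes), with log2 fold changes of -0.35, -0.47 and -0.14. In numbers 9 to 12 the difference was 0.08, and the change differed between runs (edgeR interaction, adjusted p = 0.026; 3.02% of all genes passed). It was called in each of the 32 fits without 1 library but lost the call when numbers 1 to 4 were left out (edgeR, adjusted p = 0.086), when 5 to 8 were (0.26), after thinning (0.23) and in sums of runs with a run term (0.22). Timp3 lies within Syn3, which is on the other strand and had 23 and 41 UMIs in the 2 groups against 4230 and 5046 for Timp3.

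The ratio of Adamts1 to its inhibitor Timp3 within a library does not depend on scaling. Its log2 value was 0.24 ± 0.26 without and -0.06 ± 0.23 with azacitidine, and the difference was -0.25, -0.27, -0.33 and -0.36 in the 4 runs. The protease transcript thus lay lower relative to the inhibitor transcript in every run. For Adamts5 and Timp3 the corresponding values were -1.96 ± 0.28 and -2.02 ± 0.23, and the difference lay between -0.13 and 0.01 in the runs. These ratios are given as descriptions to compare libraries, since counts of different genes need not be on 1 scale.

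**Figure D2:**
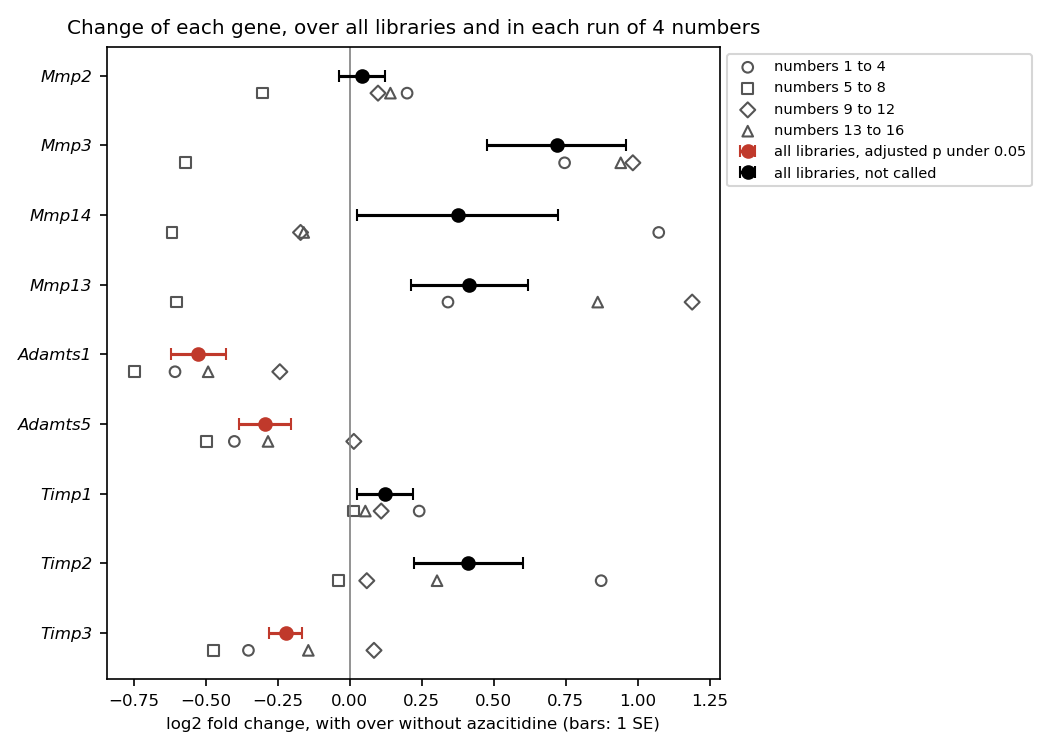
Log2 fold change of each gene with over without azacitidine. Filled points with bars are the estimate over all libraries and 1 SE (red: adjusted p under 0.05), and open symbols are the estimates within the 4 runs of replicate numbers. All open symbols of Adamts1 lie below 0, from -0.75 to -0.24, while those of Mmp3 run from -0.57 to 0.98.

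Mmp3, stromelysin-1 (ENSMUSG00000043613, chromosome 9, 7445822 to 7455975, plus strand), had the largest log2 fold change of the 9 genes but was not called, and 1 run of libraries went the other way. Its level ran from 55.7 to 164.0 CPM without azacitidine (median 111.0) and from 45.4 to 286.6 CPM with it (median 223.0). With the drug 12 libraries lay above every library without it and the other 4, numbers 5 to 8, lay below every one. Over all libraries the means were 115.3 ± 32.8 and 189.2 ± 85.5 CPM, a log2 fold change of 0.72 (SE 0.24, edgeR, adjusted p = 0.078). The means without and with the drug were 145.1 and 242.9 CPM in numbers 1 to 4, 129.5 and 247.9 in 9 to 12, and 112.3 and 216.2 in 13 to 16. In these runs Mmp3 was higher by 0.75, 0.98 and 0.94 on the log2 scale, each time without overlap (as in 5.66%, 3.52% and 4.60% of all genes) and each called within the run (edgeR, adjusted p = 0.00089, 0.0091 and 2.4e-08; 2.51%, 1.32% and 3.92% of genes were called). In numbers 5 to 8 the means were 74.4 ± 14.7 and 49.9 ± 3.5 CPM, a decrease called within that run (log2 fold change -0.57, edgeR, adjusted p = 0.0029; 6.60% of genes were called). Each group had its lowest run mean of Mmp3 in numbers 5 to 8. The change differed between the runs (edgeR interaction, adjusted p = 7.0e-07).

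The call of Mmp3 changed with numbers 5 to 8 and with the way the runs were modelled. Without these numbers the log2 fold change was 0.88 (edgeR, adjusted p = 1.5e-08), and leaving out any single one of the 4 libraries of numbers 5 to 8 with azacitidine gave adjusted p between 0.028 and 0.036. DESeq2 called it in all libraries (adjusted p = 0.047) and limma-voom did not (0.33). A run term on single libraries called it (0.60, edgeR, adjusted p = 0.0020), and sums of runs with a run term did not (0.59, adjusted p = 0.56). Spike-in scaling gave 1.01 (edgeR, adjusted p = 4.5e-05), and there the difference between runs was not called (edgeR interaction, adjusted p = 0.43).

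Mmp13, collagenase-3, lies upstream of Mmp3 in the metalloproteinase cluster on chromosome 9 (7272514 to 7283331) and was low, with 186 UMIs in the 16 libraries without and 333 in the 16 with azacitidine. Its level ran from 2.4 to 14.7 CPM (median 6.4) and from 5.4 to 22.3 CPM (median 9.2), and the groups overlapped. The means were 6.9 ± 3.2 and 9.7 ± 4.3 CPM, a log2 fold change of 0.42 (SE 0.20, edgeR, adjusted p = 0.29). The runs had the same order of signs as for Mmp3, namely 0.34, -0.60, 1.19 and 0.86, and the difference between them was called (edgeR interaction, adjusted p = 0.035). Within a run it was called in numbers 9 to 12 only (edgeR, adjusted p = 0.036), where means of 6.3 and 15.1 CPM came from groups that did not overlap. Of all genes 3.52% were higher without overlap there, and 1.32% were called within that run. Without numbers 5 to 8 the value was 0.80 (edgeR, adjusted p = 0.031). At these counts counting error is large. After every library was thinned to 818619 UMIs the gene did not pass the filter.

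Other genes of that cluster were measured too. Mmp10, stromelysin-2, the neighbour of Mmp3 (chromosome 9, 7502352 to 7510240), rose from 6.0 ± 2.5 to 14.4 ± 10.3 CPM (log2 fold change 1.17, SE 0.33, edgeR, adjusted p = 0.030), with 0.72, 1.92 and 1.09 in numbers 1 to 4, 9 to 12 and 13 to 16; in numbers 5 to 8 it was under the filter. Leaving out numbers 1 to 4 ended the call of Mmp10 (edgeR, adjusted p = 0.059), and limma-voom did not call it. Mmp8, the neutrophil collagenase, had 23 UMIs without and 103 with azacitidine, and Mmp27 had 12 and 48. Both were under the filter; with no filter Mmp8 was called (edgeR, adjusted p = 0.0083) and Mmp27 was not (0.062). Mmp12, the macrophage elastase, had 12 and 7 UMIs.

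Mmp2 is gelatinase A, Mmp14 its membrane-bound activator and Timp2 the inhibitor that joins them, and none of the 3 transcripts was called. Mmp2 (ENSMUSG00000031740, chromosome 8, 92827291 to 92853420) ran from 943.4 to 1496 CPM without (median 1146.5) and from 938.5 to 1621.9 CPM with azacitidine (median 1098.6). The ranges nearly coincided. The log2 fold change was 0.04 (SE 0.08, 95% interval from -0.12 to 0.20, edgeR, adjusted p = 0.87), with -0.025 without the 5 libraries that stood apart and -0.03 without numbers 1 to 4. Inside the runs it differed (edgeR interaction, adjusted p = 0.0035). In numbers 5 to 8 the mean was 1239.8 ± 25.8 CPM without and 1004.8 ± 65.8 CPM with azacitidine. Mmp2 was lower there without overlap (as in 5.69% of all genes) and called (edgeR within the run, adjusted p = 0.0098). Within that run 6.60% of genes were called. In the other runs the log2 values were 0.20, 0.10 and 0.14, none called. In numbers 13 to 16 the libraries with azacitidine lay higher without overlap, at 976.2 to 1102.9 against 943.4 to 956.4 CPM (4.60% of all genes did so there).

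Mmp14 (ENSMUSG00000000957, chromosome 14, 54431612 to 54445364) ran from 105.1 to 739.9 CPM without azacitidine (median 189.5) and from 104.9 to 1012.3 CPM with it (median 168.0). Its top values were 811.1, 909.3 and 1012.3 CPM in numbers 1, 2 and 4 with azacitidine and 739.9 and 338.2 CPM in numbers 1 and 2 without it, which are the 5 libraries that stood apart. All other libraries were at or under 327.8 CPM. The mean was 233.3 ± 150.6 without and 301.0 ± 306.2 CPM with azacitidine, a log2 fold change of 0.37 (SE 0.35, edgeR, adjusted p = 0.66). The sign turned without those 5 libraries, to -0.24 (edgeR, adjusted p = 0.38), where the means were 189.6 ± 59.5 (n = 14) and 160.2 ± 32.4 CPM (n = 13). In numbers 5 to 8 Mmp14 was lower without overlap, at 260.6 ± 48.1 and 169.3 ± 3.5 CPM (log2 fold change -0.62, edgeR within the run, adjusted p = 6.8e-05). Of all genes 5.69% were lower without overlap there, and 6.60% were called within that run.

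Timp2 (ENSMUSG00000017466, chromosome 11, 118301069 to 118355740) ran from 120.9 to 351.3 CPM without (median 166.3) and from 150.3 to 497.0 CPM with azacitidine (median 176.7). It was also highest in libraries that stood apart, at 351.3 and 251.1 CPM without and 423.6, 485.3 and 497.0 CPM with azacitidine, and the 1 other library above 251.1 CPM was number 3 with azacitidine at 291.0 CPM. The log2 fold change was 0.41 (SE 0.19, edgeR, adjusted p = 0.25), and it was 0.19 without the 5 libraries (edgeR, adjusted p = 0.23). With spike-in scaling Timp2 was called as higher (0.71, edgeR, adjusted p = 0.018). Cep295nl overlaps Timp2 on the same strand and had 30 and 56 UMIs against 5108 and 10511.

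**Figure D3:**
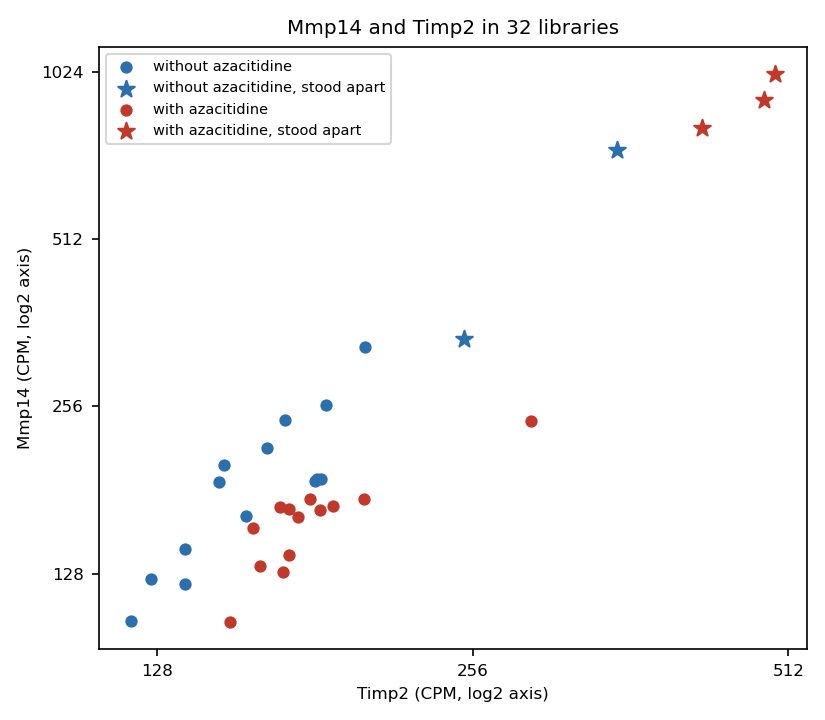
Mmp14 against Timp2 in the 32 libraries (CPM, both axes on a log2 scale), without (blue) and with azacitidine (red); stars are the 5 libraries that stood apart. The 5 stars lie at the top right, from 338.2 to 1012.3 CPM of Mmp14. The circles of the 2 groups overlap on both axes. Their mean log2 ratio of Mmp14 to Timp2 differed by -0.39 with azacitidine.

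The transcripts of Mmp14 and Timp2 moved together from library to library. After removal of the group means the correlation of their log2 CPM over 32 libraries was 0.97, the highest of Mmp14 with any of the other tested genes, and over the 27 libraries without those that stood apart it was 0.83. The rank held in the first case only: without the 5 libraries Mrpl43 (0.89), Itm2b and Thyn1 (both 0.86) were more like Mmp14, and with the means of each run and group removed Rack1 (0.98), Gnas (0.97) and Adprh (0.96) were, against 0.95 for Timp2. These are descriptions, since libraries of a run share depth and whatever else the run shares. Relative to Timp2, Mmp14 lay lower with azacitidine in 3 runs: the log2 ratio differed by -0.57, -0.19 and -0.47 in numbers 5 to 8, 9 to 12 and 13 to 16 and by 0.27 in numbers 1 to 4. Without the 5 libraries the difference was -0.39. For Mmp2 to Timp2 the log2 ratio was 2.72 ± 0.28 without and 2.43 ± 0.38 with azacitidine, lower in each run by between -0.76 and -0.01.

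Timp1, the soluble inhibitor (ENSMUSG00000001131, chromosome X, 20870166 to 20874735), ran from 338.5 to 607.3 CPM without azacitidine (median 414.7) and from 362.4 to 706.3 CPM with it (median 459.1). Its highest values were again in the 5 libraries that stood apart, from 603.8 to 706.3 CPM, against at most 531.8 elsewhere. The means of 444.5 ± 84.2 and 483.7 ± 107.2 CPM gave a log2 fold change of 0.12 (SE 0.10, 95% interval from -0.07 to 0.31, edgeR, adjusted p = 0.58). In the runs it was 0.24, 0.01, 0.11 and 0.05, none called. Timp1 lies within Syn1 on the other strand, which had 117 and 138 UMIs against 12396 and 19449. The sum of the 4 metalloproteinase transcripts over that of the 3 TIMP transcripts, most of it Mmp2, had a log2 value of 0.93 ± 0.17 without and 0.95 ± 0.12 with azacitidine, and differed by 0.11, -0.27, 0.07 and 0.14 in the runs.

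The genes whose levels followed these 9 most closely over the 32 libraries, after removal of the group means, differed from member to member. Mmp2 was most like Postn, Rtl8b and Gas6 (r = 0.95, 0.93 and 0.91), Mmp3 like Gdpd2, Angpt1 and Rasl11a (0.93, 0.88 and 0.87), and Timp1 like Rras, Eef1a1 and Igfbp4 (0.90, 0.90 and 0.88). Adamts1 was most like Ccn1, Nrep and Ier2 (0.81, 0.78 and 0.75), Adamts5 like Sptbn1, Tap2 and Sspn (0.74, 0.73 and 0.72), Timp3 like Hltf, Col5a1 and Ptpn2 (0.67, 0.67 and 0.62), and Mmp13 like Rab43, Grem1 and B4galt1 (0.64, 0.63 and 0.62). Part of this likeness lay between runs. With the means of each run and group removed, Mmp3 was most like Rbm12, Hyou1 and Sidt2 (0.75, 0.75 and 0.74), and Timp1 like Zfas1 and Fau (0.92 and 0.92). Both sets of correlations include the 5 libraries that stood apart. Without them Timp1 was most like Mustn1, Cebpd and Rnase4 (0.79, 0.76 and 0.75). Mmp2 was then most like Fbln7, Aebp1 and Postn (0.92, 0.90 and 0.88), and Mmp3 like Gdpd2, Maged1 and Cyb5r3 (0.95, 0.90 and 0.88). Adamts1 kept Ccn1 and Nrep (0.82 and 0.81) behind Igf1 (0.82).

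**Figure D4:**
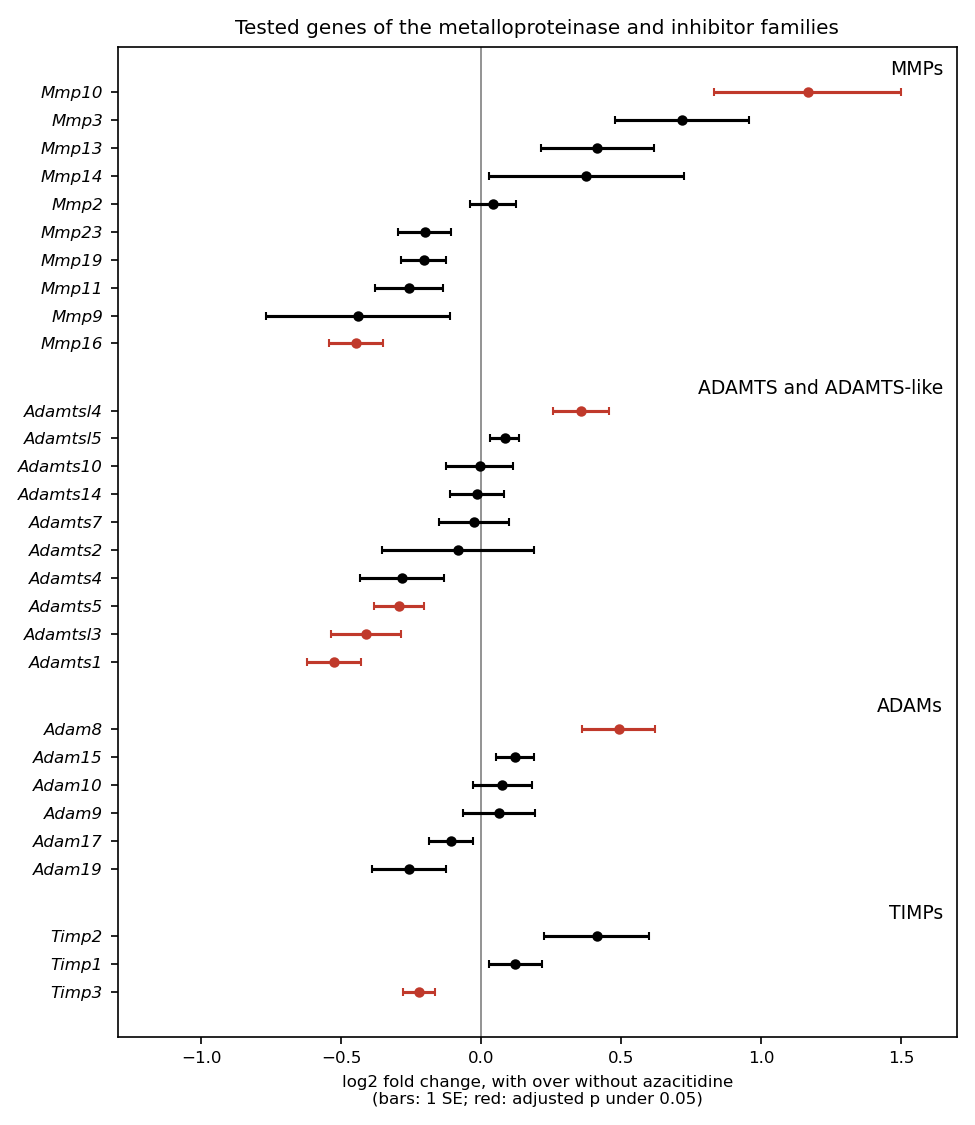
Log2 fold change with over without azacitidine for every tested gene of the MMP, ADAMTS, ADAM and TIMP families (bars: 1 SE; red: adjusted p under 0.05). Mmp10 lies farthest right at 1.17 and Adamts1 farthest left at -0.53.

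The wider families moved in both directions. For comparison, 3.65% of all tested genes were called as higher, 2.00% as lower and 5.65% in either direction. Of the 19 other MMP genes 15 were in the table, 6 were tested, 1 rose (Mmp10) and 1 fell. The latter was Mmp16, a membrane-type relative of Mmp14, from 32.1 ± 7.3 to 23.6 ± 3.7 CPM (log2 fold change -0.45, SE 0.10, edgeR, adjusted p = 0.0024), lower in each run and called with sums of runs and a run term (0.035). The list's median was -0.23. Mmp9, gelatinase B, had a value of -0.44 (SE 0.33), Mmp11 -0.26, Mmp19 -0.21 and Mmp23 -0.20, none called; without numbers 1 to 4 Mmp9 and Mmp23 were called as lower (-0.83 and -0.34, edgeR, adjusted p = 0.027 and 0.0029), and with sums of runs and a run term Mmp11 was (-0.27, adjusted p = 0.035). A run term on single libraries called Mmp9 (edgeR, adjusted p = 0.0053), Mmp11 (7.9e-05), Mmp19 (0.0081) and Mmp23 (0.0070) as lower. Under the filter Mmp15 had 6 and 16 UMIs, Mmp24 9 and 20, and Mmp28 49 and 68. Such totals are not scaled for the greater depth of the group with azacitidine. Adamts10, with a log2 fold change of -0.005, had 470 UMIs without and 683 with azacitidine. Of the 22 other ADAMTS and ADAMTS-like genes 17 were in the table, 8 were tested, 1 rose and 1 fell, with a median of -0.02. Both called genes encode ADAMTS-like proteins, which have no protease domain: Adamtsl4 rose by 0.35 (SE 0.10, edgeR, adjusted p = 0.026) and Adamtsl3 fell by 0.41 (SE 0.12, adjusted p = 0.042). Neither was called with sums of runs and a run term (edgeR, adjusted p = 0.15 and 0.21). The other aggrecan-cutting enzyme gene, Adamts4, had a value of -0.28 and was not called (edgeR, adjusted p = 0.34), and Adamts2, which trims procollagen, had -0.08 (0.94), with 0.38 in numbers 1 to 4, and was called as lower without them (-0.55, edgeR, adjusted p = 0.0037). Adamts7, Adamts10 and Adamts14 lay within 0.03 of no change and Adamtsl5 at 0.08. Under the filter Adamts9 had 76 and 83 UMIs, Adamts12 26 and 26, Adamts6 16 and 18, Adamts15 4 and 14, Adamts16 6 and 14, Adamtsl2 40 and 48, and the fourth inhibitor gene Timp4 2 and 11. Of the 9 ADAM sheddase genes all were in the table, 6 were tested and 1 rose, Adam8, by 0.49 (SE 0.13, edgeR, adjusted p = 0.017), and the median was 0.07.

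Genes for activators and partners of the proteases were called in both directions. Of 19 activators and partners 17 were in the table and 13 were tested, of which 2 rose and 1 fell, with a median of 0.10 (5.65% of all tested genes were called in either direction). Cd44, a hyaluronan receptor to which metalloproteinases dock, rose from 86.4 ± 5.9 to 115.3 ± 12.7 CPM (log2 fold change 0.42, SE 0.05, edgeR, adjusted p = 2.5e-07). In the plasminogen system the receptor gene Plaur rose from 60.5 ± 13.3 to 92.5 ± 22.7 CPM (0.60, SE 0.12, adjusted p = 0.00082), while its ligand, the activator gene Plau, fell from 21.2 ± 5.2 to 16.1 ± 3.0 CPM (-0.40, SE 0.11, adjusted p = 0.017). Plau lost its call when numbers 1 to 4 were left out (edgeR, adjusted p = 0.075) and in sums of runs with a run term (0.076), and Cd44 and Plaur were called in both. Furin, the protease that cuts the propeptide of MMP14, had a value of -0.05 without a call. Of 16 other inhibitors and clearance receptors 14 were in the table and 8 were tested, of which 0 were called by edgeR, DESeq2 or limma-voom. Before adjustment 2 of them had p below 0.05 in edgeR, among them Lrp1, a receptor that takes up proteases with their inhibitors (log2 fold change -0.21). Over all tested genes 1072 of the 8816 without a call had p below 0.05 before adjustment. Of 24 genes for AP-1 and signals known to induce metalloproteinases 23 were in the table and 17 were tested, of which 1 fell, the transcription factor gene Ets2 (-0.28, SE 0.05, edgeR, adjusted p = 0.00029). None rose in edgeR (3 more genes had p below 0.05 before adjustment), while 1, Atf3, was called as higher by both DESeq2 and limma-voom (edgeR log2 fold change 0.44, adjusted p = 0.057). Jun had 0.18 and Fosl1 0.22, without a call.

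Transcripts of many substrates were lower. Of 22 substrate genes 19 were in the table and 18 were tested, of which 9 fell and 2 rose, with a median of -0.37 against 0.00 over all genes. Over all tested genes 2.00% were called as lower and 3.65% as higher. Vcan, the versican that ADAMTS1 and ADAMTS5 cut, fell from 137.9 ± 28.3 to 95.9 ± 13.5 CPM, with log2 fold changes of -0.75, -0.41, -0.38 and -0.52 in the 4 runs. Col3a1 stood at 4459.5 ± 439.9 and 2849.3 ± 410.8 CPM, Lum at 18.9 ± 5.6 and 96.6 ± 64.5 CPM, and Col4a1 at 275.5 ± 37.7 and 188.9 ± 26.2 CPM, each called (edgeR, adjusted p = 6.2e-09, 3.0e-08 and 2.7e-07). With spike-in scaling none of the decreases named for the wider families, the partners, the signals and the substrates was called.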

How the data were processed

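UMI counts of polyadenylated RNA in 32 libraries were used as the authors deposited them, namely whole counts per gene with no normalization found. Per the labels' protocols, cDNA was barcoded, pooled, amplified with a UMI method and built into libraries with a transposase kit. Per the submitters' processing notes, STAR 2.4.0, bedtools 2.17.0 and mm10 were used; UMI collapsing, annotation and strand are not given in the sources used here. Of 21897 lines 68 were spike-in RNAs (0.106% of UMIs), which stayed out of library sizes and tests. Symbols and positions came from GENCODE M21 for 21506 of 21829 genes.

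Groups followed the sample titles. edgeR 4.0.16 (R 4.3.3, TMM, default filter by group, robust quasi-likelihood test, two-sided) was fitted to 9344 genes with 98.8% of the UMIs, and to each run of 4 replicate numbers and to a run by treatment interaction. Standard errors came from the fold change and F statistic. The 95% intervals assume a normal error. Correlations used log2 CPM with a prior count of 2. Every pair of libraries in a group differed beyond sampling noise (chi-square test over genes, p at most 1.3e-16). Alternatives were other scalings (size factors, spike-ins), DESeq2 1.42.0, limma-voom 3.58.1, no filter, thinning, a replicate block, a run term, sums over runs, and leaving out libraries or runs; leaving out 5 libraries, single libraries or numbers past 4 was added after the data were seen. Members and lists were chosen with earlier results of these data known. Named genes were the 9 members, up to 4 called genes of each list by p, family genes with at least 10 UMIs, and the 3 genes most like each member, except items that are not reported here; others were chosen after their values were seen.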

Additional observations from a re-analysis of the deposited data

Results flagged for a closer look

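The change with azacitidine differed between the 4 runs of replicate numbers for 4 of the 9 genes (edgeR interaction test, adjusted over all genes). Over all 9344 tested genes 3.02% passed this test, a share given for the main setting only. Mmp3 had an adjusted p = 7.0e-07, with log2 fold changes of 0.75, -0.57, 0.98 and 0.94 in numbers 1 to 4, 5 to 8, 9 to 12 and 13 to 16. For Mmp2 the adjusted p was 0.0035 and the values were 0.20, -0.30, 0.10 and 0.14. Timp3 gave an adjusted p = 0.026 with -0.35, -0.47, 0.08 and -0.14. The values of Mmp13 were 0.34, -0.60, 1.19 and 0.86, with an adjusted p = 0.035. The call of Timp3 was lost with no filter (edgeR interaction, adjusted p = 0.12), and those of Timp3 and Mmp2 after thinning (0.31 and 0.062). With spike-in scaling none of the 4 was called (0.43 for Mmp3 and 0.73 for the other 3). With no filter the difference was called for Mmp14 and Timp2 as well (1.9e-29 and 1.5e-07), and for Timp2 also without the 5 libraries that stood apart (0.018). In all 4 genes the lowest value was that of numbers 5 to 8, which held for each of the 9 genes and is not particular to these 4. The runs were recognised from the data and from the order of the replicate numbers, and what distinguishes them is not given in the sources used here.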

How the results depend on the processing

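Of 125 values of the 9 genes under 14 alternatives, 99 kept sign and call, 12 lost and 7 gained a call, and 7 changed sign. Adamts1 kept its call under 13 alternatives, all but spike-in scaling, Timp3 under 9 and Adamts5 under 6. Sign changes were those of Mmp14 (-0.005 with sums over runs and a run term, -0.34 without numbers 1 to 4, -0.24 without the 5 libraries that stood apart), Mmp2 (-0.03 and -0.025 in the latter 2), and, with spike-in scaling, Adamts5 (0.018) and Timp3 (0.09). The cause was not tested.

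Called members were 3 lower and 0 higher in the main test. The replicate block gave 1 higher, Mmp3, and moved calls over all genes from 528 (341 higher, 187 lower) to 897 (518 and 379). Same-numbered libraries had a correlation over 0.1 in 12 of 16 pairs, and 4 libraries without azacitidine correlated best with their own number, so the numbers were not taken to pair the libraries. A run term gave 1 higher (Mmp3) and 993 calls (563 and 430). Sums with a run term gave 1 called member, lower, and 86 genes called as lower. With spike-in scaling 2 members were higher (Mmp3, Timp2), 0 lower, 1 gene over all was lower, and 0 members differed between runs. DESeq2 gave 1 higher. No filter gave 860 calls, 718 of them higher. Thinning left 1 called member, lower, 173 calls (120 and 53) and 1 member that differed between runs. Without numbers 1 to 4 there was 1 called member, lower; without 5 to 8 there were 2 higher (Mmp3, Mmp13), 1 lower and 110 genes lower over all; without 13 to 16 there were 322 calls, 90 of them lower. Leaving out single libraries gave from 2 to 3 called members, from 2 to 3 lower and from 0 to 1 higher. The interaction was not run with the replicate block, sums, DESeq2 or limma-voom. Depth limits Mmp13, which did not pass the filter after thinning, and thinning also ended the calls of Adamts5 and Timp3.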
